A study of Mus musculus with 31 samples.

Results

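The genes described here are Tnf, which encodes the cytokine tumour necrosis factor (TNF), and the genes of the proteins that release, bind and first transmit it. They are the receptor genes Tnfrsf1a and Tnfrsf1b, the sheddase gene Adam17, the adaptor genes Traf1 and Traf2, and the ubiquitin ligase genes Birc2 and Birc3. These 8 genes were chosen by name from the pathway, with earlier results of these data known. They were matched by Ensembl identifier, out of 35275 gene identifiers counted in experiment 1 and 54532 in experiment 2. All 8 had enough reads to be tested in both experiments. RNA was sequenced in bulk from macrophages grown from marrow of C57BL/6J mice, males aged 6 to 12 weeks, cultured with L-929 conditioned medium. Experiment 1 held 3 libraries in each of 7 groups. They were vehicle without LPS, LPS alone, LPS after Dex, iBRD9 or dBRD9, and LPS after Dex together with iBRD9 or with dBRD9. Experiment 2 held 2 libraries in each of 5 groups. They were vehicle, stimulation with both IFNγ and LPS, and the same stimulation after Dex, after dBRD9 and after both compounds. A group is named below by its agents, as in Dex + LPS. LPS is a bacterial cell wall component that activates macrophages, and was given at 100 ng/ml for 3 h after an overnight incubation with the compounds. IFNγ is interferon gamma, whose dose and timing the sources used here do not give. Dex is the synthetic glucocorticoid dexamethasone at 1 µM. The compound iBRD9 inhibits the bromodomain of BRD9, which belongs to the non-canonical form of the BAF chromatin remodeller, and dBRD9 at 250 nM degrades BRD9. iBRD9 was used at 3 or 10 µM, and the labels do not say which sample received which dose, so the iBRD9 and dBRD9 groups are not at matched doses.

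TNF is made as a membrane protein that the metalloprotease ADAM17 cuts loose from the cell surface. The soluble and membrane forms bind the receptor TNFR1, encoded by Tnfrsf1a and found on most cells, and TNFR2, encoded by Tnfrsf1b and prominent on blood and immune cells. The adaptor TRAF2, alone or with TRAF1, brings the ubiquitin ligases cIAP1 (Birc2) and cIAP2 (Birc3) to the receptors, where they ubiquitinate RIPK1 and so help to activate NF-κB and to restrain cell death. Macrophages are a main source of TNF after LPS, and glucocorticoids are known to restrain its production.

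Experiment 1 was sequenced to between 19.3 and 29.9 M counts per library (M, mega), and experiment 2 to between 14.5 and 17.9 M. Levels are given as CPM, counts per M of the library total scaled by its TMM factor, and every fold change is on the log2 scale with its standard error (SE). A gene is called where its adjusted p in edgeR's quasi-likelihood test is under 0.05. All comparisons with LPS alone share the same 3 LPS libraries, and likewise those with any other control group. Nothing in the labels tells if the replicates came from different mice or dishes. A p here therefore reflects the spread of these libraries alone, which may be partly technical. The 7 macrophage markers (Adgre1, Csf1r, Cd68, Itgam, Lyz2, Fcgr1 and Mertk) were all detected, with a summed level of 11300 to 23300 CPM in experiment 1 and 11400 to 14200 CPM in experiment 2. The summed markers of neutrophils reached 34.9 CPM, those of stromal cells 58.7 CPM in experiment 2 and 0.528 CPM in experiment 1, and those of dendritic cells, of T and NK cells and of mast cells at most 8.62 CPM, with Ncr1 and Mcpt8 at 0 in experiment 1 and Ly6g and Cd3e at 0 in experiment 2. The stromal sum in experiment 2 was 53.5 to 58.7 CPM with IFNγ + LPS and 27.8 to 32.1 CPM with Dex + dBRD9 + IFNγ + LPS, and its part in the results was not tested. The neutrophil sum was 15.7 to 22.1 CPM with LPS and 0.94 to 2.3 CPM with iBRD9 + LPS, and the dendritic sum 6.77 to 7.72 and 1.15 to 1.45 CPM. The macrophage sum was 14000 to 14600 CPM with LPS, 22400 to 23300 CPM with Dex + LPS and 11300 to 11500 CPM with dBRD9 + LPS. In experiment 2 it moved the other way with Dex, from 12800 to 13300 CPM with IFNγ + LPS to 11400 to 11900 CPM. In experiment 2 the neutrophil sum was 32.8 to 34.9 CPM with IFNγ + LPS, 11.6 to 17.1 CPM with Dex and 16.5 to 19.7 CPM with dBRD9. The part of these sums in the results was not tested either. Across 7423 genes, deviations from the group mean fell with exon length in replicate 1 of Dex + LPS (Spearman rho -0.684) and in replicate 1 of Dex + dBRD9 + LPS (rho -0.521). Both are said below to stand apart. Other groups showed such trends too. With dBRD9 + LPS rho was -0.335 and 0.434 in replicates 1 and 2. In experiment 2, over 7217 genes, it was -0.634 and 0.634 with vehicle, 0.577 and -0.577 with Dex + IFNγ + LPS, and -0.293 and 0.293 with IFNγ + LPS. In a group of 2 libraries the deviations mirror each other, so neither library can be singled out. The part of these trends in the results was not tested. For some results that rest on the first Dex + LPS or the first Dex + dBRD9 + LPS library, values without it are therefore also given.

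The sequences just upstream are shown for 4 genes picked by their results. Tnf and Traf1 had the largest rises of the 8 genes after LPS, and the neighbouring genes Birc2 and Birc3 moved in opposite directions with iBRD9. No link between these sequences and the responses was tested. Each is the 250 bases before the first start site that RefSeq lists on GRCm38.p6, on the strand of the gene and 5′ to 3′. Capitals mark a match to a TATA box (TATAAA) or a cyclic AMP response element (TGACGTCA). The window of Tnf lies at chr17:35202008-35202257 on the minus strand, Traf1 at chr2:34961773-34962022 on the minus strand, Birc2 at chr9:7837058-7837307 on the minus strand and Birc3 at chr9:7873171-7873420 on the minus strand.
Tnf: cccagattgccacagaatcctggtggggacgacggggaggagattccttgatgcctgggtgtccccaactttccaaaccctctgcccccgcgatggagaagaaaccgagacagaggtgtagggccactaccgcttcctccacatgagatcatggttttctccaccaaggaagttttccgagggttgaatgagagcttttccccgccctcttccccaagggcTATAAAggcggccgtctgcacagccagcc
Traf1: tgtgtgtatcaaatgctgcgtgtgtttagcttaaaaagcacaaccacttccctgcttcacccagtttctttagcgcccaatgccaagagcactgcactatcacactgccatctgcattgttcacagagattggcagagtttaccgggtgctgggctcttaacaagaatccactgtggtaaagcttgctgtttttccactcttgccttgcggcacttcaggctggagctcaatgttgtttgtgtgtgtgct
Birc2: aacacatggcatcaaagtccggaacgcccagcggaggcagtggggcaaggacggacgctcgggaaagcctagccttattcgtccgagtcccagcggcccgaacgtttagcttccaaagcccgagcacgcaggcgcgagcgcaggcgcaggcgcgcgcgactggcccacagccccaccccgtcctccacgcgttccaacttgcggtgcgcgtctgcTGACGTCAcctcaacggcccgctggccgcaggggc
Birc3: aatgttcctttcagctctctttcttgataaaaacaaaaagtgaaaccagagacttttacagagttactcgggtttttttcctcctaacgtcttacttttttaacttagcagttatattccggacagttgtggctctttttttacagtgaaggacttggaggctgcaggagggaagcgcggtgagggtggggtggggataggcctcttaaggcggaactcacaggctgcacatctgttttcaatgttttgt
The Tnf window held TATAAA at bases -29 to -24 from the start site, on the strand of the gene. Anywhere in the window and on either strand, the motif was present in 12.4% of all 32851 promoter windows of this length. The Birc2 window held TGACGTCA at bases -35 to -28, present in 1.55% of them. The window of another start site listed for Birc2, at chr9:7836807-7837056, held none of the searched motifs. Which start site these cells used was not tested. Neither the kappaB consensus, found in 7.25% of windows, nor the AP-1 motif TGANTCA, found in 6.75%, occurred on either strand in the windows of any of the 8 genes. A match is a description of letters, and the absence of one says only that these letters are not in this window. The searched motifs did not overlap in these windows. GC content ran from 43.6% (Birc3) and 48% (Traf1) through 57.6% (Tnf) to 68.4% (Birc2), and to 70.4% in the window of Adam17.

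Tnf (ENSMUSG00000024401; mm10 chromosome 17, 35199381 to 35202007, minus strand) showed the largest response to stimulation of the 8 genes. Its level was 28.3, 30.1 and 30.3 CPM with vehicle in experiment 1 and 8677, 8587 and 8006 CPM with LPS. The 2 groups were far apart, by a log2 difference of 8.15 (SE 0.062, adjusted p = 1.69e-29), a 285-fold rise. Levels of different genes are compared per kilobase of exon, which is rough because the length covers all annotated exons of a gene. Which transcripts these cells made was not tested. On that scale Tnf moved from rank 1951 of 12607 genes with vehicle to rank 4 with LPS, where it took 0.842% of the scaled counts. In experiment 2 the level was 32.5 and 29.3 CPM with vehicle and 3771 and 3862 CPM with IFNγ + LPS, a rise of 6.95 (SE 0.14, adjusted p = 6.15e-16). The rank per kilobase there was 1752 of 13308 and then 17. The experiments were normalised apart, so these levels stand side by side without a test. In bulk RNA, fewer cells of a type and less RNA per cell cannot be told apart.

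**Figure D1:**
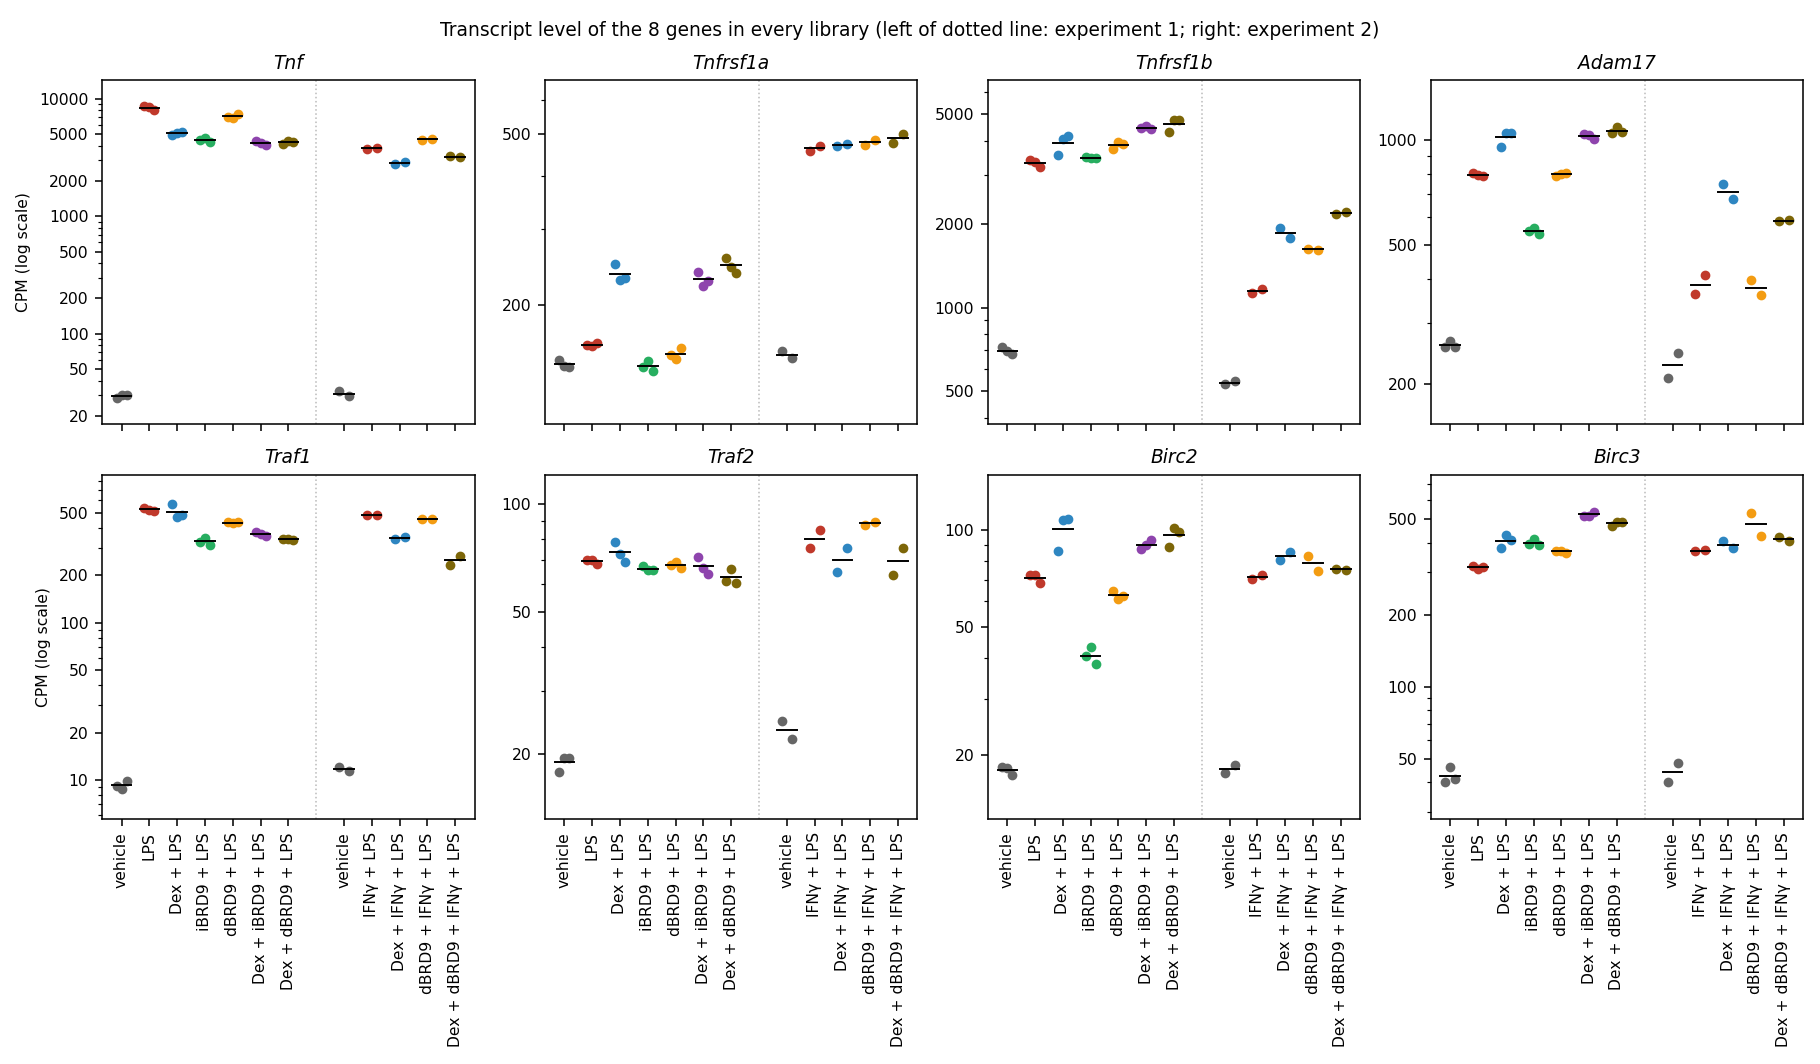
Level of each of the 8 genes in every library, in CPM on a log axis that differs between panels. Points are libraries (3 per group in experiment 1, left of the dotted line, and 2 in experiment 2) and bars are group means. Tnf and Traf1 rose most after LPS, Birc2 was lowest among the LPS groups with iBRD9 (41 CPM on average), and Tnfrsf1a was at 455 CPM or more in every library given IFNγ + LPS and at most 258 CPM in all others.

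Dex and both BRD9 compounds lowered Tnf under LPS in experiment 1. The Dex + LPS libraries held 4979, 5150 and 5199 CPM, the iBRD9 + LPS libraries 4470, 4657 and 4262 CPM, and the dBRD9 + LPS libraries 7033, 6951 and 7387 CPM. None of the 3 groups overlapped LPS alone. The log2 fold change was -0.72 with Dex (SE 0.045, adjusted p = 3.7e-12), -0.92 with iBRD9 (SE 0.045, adjusted p = 5.37e-14) and -0.24 with dBRD9 (SE 0.045, adjusted p = 0.00039). With Dex present the levels were 4347, 4215 and 4067 CPM with iBRD9 and 4164, 4396 and 4325 CPM with dBRD9, below every Dex + LPS library. Added to Dex, iBRD9 gave -0.28 (SE 0.045, adjusted p = 3.85e-05) and dBRD9 -0.25 (SE 0.045, adjusted p = 0.000351). The effect of iBRD9 thus differed with Dex, by an interaction of 0.64 (SE 0.063, adjusted p = 4.43e-08). For dBRD9 the difference was -0.0088 (95% interval -0.14 to 0.12, adjusted p = 0.969). From the highest mean down, LPS, dBRD9 + LPS, Dex + LPS and iBRD9 + LPS did not overlap one another. Dex + dBRD9 + LPS, next in order, overlapped iBRD9 + LPS above it and Dex + iBRD9 + LPS below it. Even the lowest of these groups, with a mean of 4210 CPM, stayed far above vehicle.

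Under IFNγ + LPS, Tnf was 2780 and 2916 CPM with Dex, 4491 and 4576 CPM with dBRD9, and 3266 and 3191 CPM with both. The Dex libraries lay below the IFNγ + LPS libraries, by -0.42 (SE 0.1, adjusted p = 0.00855). Without the second IFNγ + LPS library the Dex effect was -0.40 (adjusted p = 0.0668). Both dBRD9 libraries lay above IFNγ + LPS, but the difference of 0.25 was not called (SE 0.1, 95% interval 0.027 to 0.47, adjusted p = 0.344). Added to Dex, dBRD9 gave 0.18 (adjusted p = 0.448). None of the 5 groups overlapped its neighbour in the order of means.

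The receptor genes differed in their response. Tnfrsf1a (ENSMUSG00000030341; chromosome 6, 125349362 to 125362484, plus strand) was 149, 145 and 144 CPM with vehicle and 162, 160 and 164 CPM with LPS in experiment 1. This small difference of 0.15 (SE 0.047, adjusted p = 0.00623) depended on the scaling: it was -0.36 (adjusted p = 6.05e-07) with library totals alone, which shift the 8 genes by -0.513 in this comparison and by -0.65 in IFNγ + LPS against vehicle. It was 0.14 with adjusted p = 0.0687 when no filter on low counts was used. Under IFNγ + LPS, the gene rose from 156 and 150 CPM to 455 and 469 CPM, by 1.59 (SE 0.098, adjusted p = 5.33e-10), or 0.94 on library totals alone.

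Tnfrsf1b (ENSMUSG00000028599; chromosome 4, 145213463 to 145246870, minus strand) was 718, 699 and 678 CPM with vehicle and 3410, 3368 and 3228 CPM with LPS. The rise was 2.25 on the log2 scale (SE 0.053, adjusted p = 1.35e-20). In experiment 2 it went from 529 and 542 CPM to 1127 and 1167 CPM, a rise of 1.1 (SE 0.1, adjusted p = 9.06e-08), or 0.45 on library totals alone. Per kilobase of exon, Tnfrsf1b was 3.2 to 3.28 times Tnfrsf1a with vehicle in experiment 1 and 13.4 to 14.3 times with LPS. In experiment 2 this ratio was 2.3 to 2.45 with vehicle and 1.68 to 1.69 with IFNγ + LPS. The ratio was thus higher with LPS than with vehicle in every library of experiment 1, and lower with IFNγ + LPS than with vehicle in every library of experiment 2.

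Dex raised both receptor genes under LPS. Tnfrsf1a was 249, 229 and 231 CPM with Dex + LPS, above every library with LPS alone, by 0.55 (SE 0.047, adjusted p = 1.26e-09). Tnfrsf1b was 3550, 4068 and 4169 CPM, also above LPS, with 0.24 (SE 0.051, adjusted p = 0.00042). The first library of the group, which stands apart by exon length, was the lowest for Tnfrsf1b and the highest for Tnfrsf1a, and without it the changes were 0.31 and 0.51. Under IFNγ + LPS, Tnfrsf1a was 468 and 473 CPM with Dex, which overlapped IFNγ + LPS (0.025, 95% interval -0.18 to 0.23, adjusted p = 0.895). Tnfrsf1b was 1935 and 1785 CPM with Dex there, a rise of 0.70 (SE 0.1, adjusted p = 9.89e-05). Whether the Dex effects differ between the experiments was not tested.

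With iBRD9 + LPS, Tnfrsf1a was 144, 149 and 141 CPM, lower than LPS by -0.17 (SE 0.048, adjusted p = 0.0046), and with library totals alone by -0.032 (adjusted p = 0.59). Tnfrsf1b was 3490, 3459 and 3477 CPM with iBRD9 + LPS, which did not overlap LPS, yet the change of 0.059 was not called (95% interval -0.046 to 0.17, adjusted p = 0.323). With dBRD9 + LPS, Tnfrsf1a was 153, 150 and 160 CPM (log2 fold change -0.073, adjusted p = 0.351). Tnfrsf1b was 3748, 3971 and 3886 CPM with dBRD9 + LPS, a rise of 0.21 (SE 0.051, adjusted p = 0.0044). Added to Dex, iBRD9 raised Tnfrsf1b to 4449, 4537 and 4426 CPM (0.19, SE 0.051, adjusted p = 0.0066), and without the first Dex + LPS library this was 0.12 (adjusted p = 0.0258). dBRD9 added to Dex gave 4319, 4739 and 4747 CPM (0.23, SE 0.051, adjusted p = 0.0031, and 0.16 to 0.29 over the alternative runs). In fits of only the 2 groups compared, neither call held (adjusted p = 0.0997 and 0.179). Tnfrsf1a, at 239, 222 and 228 CPM with iBRD9 and 258, 246 and 238 CPM with dBRD9, was called in neither of these. Under IFNγ + LPS, dBRD9 raised Tnfrsf1b to 1633 and 1618 CPM, by 0.50 (SE 0.1, adjusted p = 0.016). That call was lost whichever of the 4 libraries was left out, with adjusted p from 0.0751 to 0.237 and the change between 0.48 and 0.53. With Dex and dBRD9 together Tnfrsf1b was 2186 and 2222 CPM, the highest group of experiment 2, and 0.25 above Dex + IFNγ + LPS (adjusted p = 0.271).

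**Figure D2:**
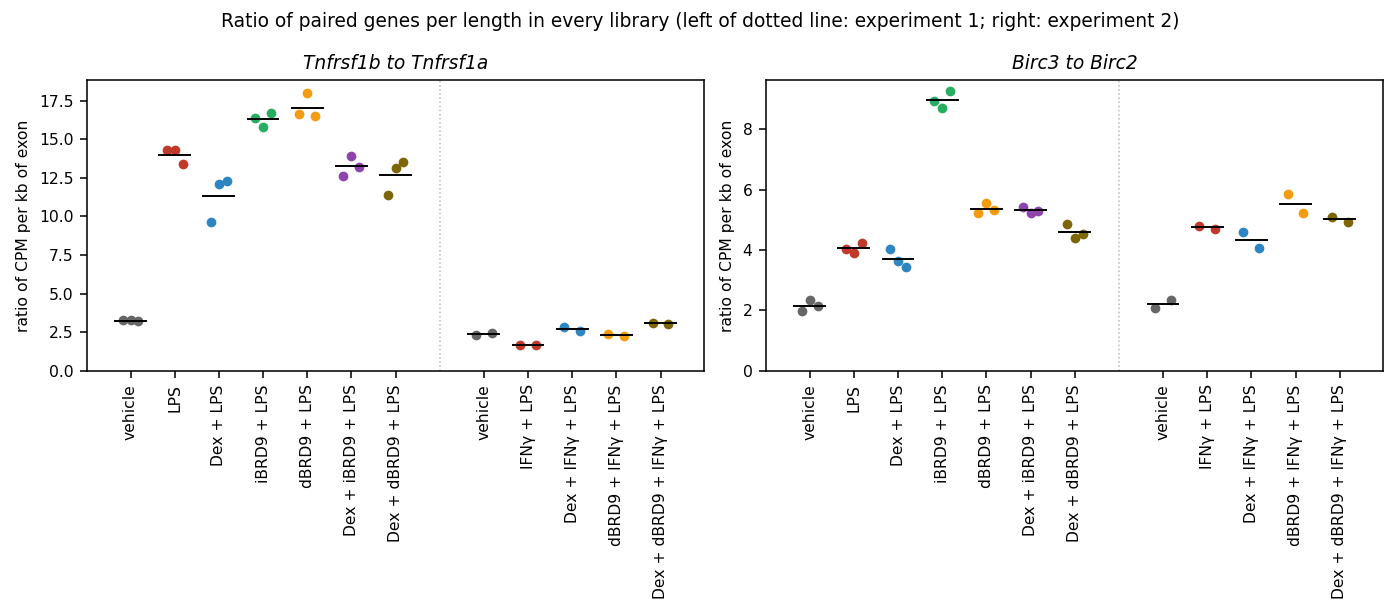
Ratio of Tnfrsf1b to Tnfrsf1a and of Birc3 to Birc2 in every library, as CPM per kilobase of exon, on axes that start at 0. Points are libraries and bars are group means, with experiment 1 left of the dotted line. The receptor ratio was 13.4 to 14.3 with LPS and 1.68 to 1.69 with IFNγ + LPS, and the Birc3 to Birc2 ratio was highest with iBRD9 + LPS (mean 8.97).

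Adam17 (ENSMUSG00000052593; chromosome 12, 21323509 to 21373632, minus strand), the gene of the TNF sheddase, was 256, 265 and 256 CPM with vehicle and 802, 791 and 789 CPM with LPS. It rose by 1.62 (SE 0.042, adjusted p = 8.14e-20). With iBRD9 it was 549, 560 and 537 CPM, below every LPS library (-0.53, SE 0.041, adjusted p = 1.37e-10). With dBRD9 it was 788, 797 and 805 CPM, which overlapped LPS (0.0049, 95% interval -0.08 to 0.09, adjusted p = 0.962). Dex raised it to 953, 1047 and 1045 CPM (0.35, SE 0.041, adjusted p = 1.33e-07). With Dex present no fall with iBRD9 was detected: the libraries held 1037, 1030 and 1005 CPM with Dex + iBRD9 + LPS, a change of 0.013 from Dex + LPS (95% interval -0.072 to 0.098, adjusted p = 0.835). The interaction of Dex and iBRD9 was 0.55 (SE 0.058, adjusted p = 1.25e-07). With Dex + dBRD9 + LPS the levels were 1045, 1089 and 1049 CPM (0.064, adjusted p = 0.327). In experiment 2, Adam17 went from 209 and 245 CPM to 361 and 409 CPM with IFNγ + LPS (0.76, SE 0.11, adjusted p = 2.17e-05), a rise of 0.11 with adjusted p = 0.413 on library totals alone. Dex raised it to 746 and 676 CPM (0.88, SE 0.11, adjusted p = 3.17e-05). With dBRD9 it was 397 and 359 CPM (-0.028, adjusted p = 0.968) and with both 587 and 588 CPM, below both Dex libraries by a difference that was not called (-0.28, adjusted p = 0.272). Adam17 overlaps Iah1 on the opposite strand and shares 262 of its 7521 words of 50 bases with it, and the strand setting of the counting is not given, so reads of the 2 genes may not be fully separated.

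Traf1 (ENSMUSG00000026875; chromosome 2, 34941750 to 34961772, minus strand) encodes an adaptor that binds TRAF2 and is a known NF-κB target. It rose from 9.10, 8.73 and 9.83 CPM with vehicle to 539, 524 and 514 CPM with LPS, by 5.83 (SE 0.074, adjusted p = 1.3e-25). In experiment 2 it rose from 12.1 and 11.4 CPM to 488 and 485 CPM, by 5.37 (SE 0.12, adjusted p = 3.26e-15). Among the 8 genes only Tnf rose more by log2 fold change in these comparisons. Both BRD9 compounds lowered it under LPS. It was 328, 348 and 312 CPM with iBRD9 (-0.67, SE 0.057, adjusted p = 6.62e-10) and 435, 431 and 435 CPM with dBRD9 (-0.28, SE 0.057, adjusted p = 0.00109), all below LPS. With Dex + LPS it was 567, 474 and 487 CPM, which overlapped LPS (-0.046, adjusted p = 0.518). The high value was in the library that stands apart by exon length, and without it Dex gave -0.13 (adjusted p = 0.0155). Added to Dex, iBRD9 gave 376, 366 and 354 CPM (-0.48, SE 0.057, adjusted p = 7.94e-07) and dBRD9 343, 341 and 337 CPM (-0.58, SE 0.057, adjusted p = 1.39e-07). Without the first Dex + LPS library these were -0.40 and -0.50, and both stayed called. The fall with dBRD9 was larger with Dex than without, by an interaction of -0.30 (SE 0.08, adjusted p = 0.0363). That call was lost without any one of the 3 LPS or 3 dBRD9 + LPS libraries or of replicates 2 and 3 of Dex + dBRD9 + LPS, where adjusted p was 0.0563 to 0.1, and in a fit of only the 4 groups compared (adjusted p = 0.0985). It was -0.23 with adjusted p = 0.0145 without the first Dex + LPS library.

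Under IFNγ + LPS, Dex lowered Traf1 to 339 and 351 CPM (-0.50, SE 0.1, adjusted p = 0.00191). With dBRD9 alone it was 457 and 455 CPM (-0.094, adjusted p = 0.807). With both it was 234 and 265 CPM, below Dex alone by -0.47 (SE 0.1, adjusted p = 0.0293). That call was lost whichever of these 4 libraries was left out (adjusted p 0.106 to 0.485) and with the replicate number as a block (adjusted p = 0.0637). Among the stimulated groups of experiment 2 Traf1 was thus lowest with Dex and dBRD9 together, and the interaction of -0.37 was not called (adjusted p = 0.467).

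Traf2 (ENSMUSG00000026942; chromosome 2, 25517982 to 25546940, minus strand), whose protein carries the ubiquitin ligases to the receptor, rose with stimulation and was called in 1 of 10 comparisons among stimulated groups. It was 17.9, 19.5 and 19.6 CPM with vehicle and 69.8, 70.1 and 68.3 CPM with LPS (1.87, SE 0.06, adjusted p = 4.11e-18). In experiment 2 it rose from 24.8 and 22.0 CPM to 75.4 and 84.8 CPM (1.78, SE 0.13, adjusted p = 5.42e-09), or by 1.13 on library totals alone. There it was 64.7 and 75.4 CPM with Dex, 87.8 and 89.4 CPM with dBRD9 and 63.6 and 75.7 CPM with both, and no difference was called. Over the 6 groups given LPS in experiment 1 all libraries lay between 60.4 and 78.4 CPM, and 5 of the 6 neighbouring pairs in the order of all 7 means overlapped. The one called difference among them was Dex + dBRD9 + LPS against Dex + LPS, at 61.2, 66.0 and 60.4 against 78.4, 72.9 and 69.0 CPM (-0.23, SE 0.056, adjusted p = 0.00586). It was -0.18 without the first Dex + LPS library (adjusted p = 0.0142), and was not called in a fit of only the 2 groups compared (adjusted p = 0.172). The annotation places a pseudogene, Gm13433, inside Traf2 on the other strand. Per kilobase, Traf1 was 0.259 to 0.294 times Traf2 with vehicle in experiment 1 and 4.32 to 4.47 times with LPS, so that the gene with the lower level became the one with the higher level.

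Birc2 and Birc3 lie beside each other on chromosome 9 (Birc2, ENSMUSG00000057367, 7818227 to 7837064; Birc3, ENSMUSG00000032000, 7848699 to 7873186; both on the minus strand). They encode the related ubiquitin ligases cIAP1 and cIAP2. Both rose with LPS. Birc2 went from 18.4, 18.2 and 17.4 CPM to 72.6, 72.4 and 68.5 CPM (1.98, SE 0.079, adjusted p = 2.44e-16). Birc3 went from 40.1, 46.4 and 41.1 CPM to 320, 309 and 316 CPM (2.89, SE 0.057, adjusted p = 4.22e-22). In experiment 2, Birc2 rose from 17.6 and 18.6 to 70.3 and 72.3 CPM (1.98, SE 0.12, adjusted p = 2.53e-10) and Birc3 from 40.1 and 47.9 to 368 and 372 CPM (3.07, SE 0.13, adjusted p = 4.36e-12). The transcripts share 65 words of 50 bases, 1.49% of the words of Birc2 being found in another gene and 7.56% of those of Birc3, so a small part of their reads could be assigned to another gene.

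With iBRD9 the neighbours moved in opposite directions. Birc2 was 40.5, 43.2 and 38.5 CPM, below every LPS library (-0.80, SE 0.075, adjusted p = 3.16e-09). Birc3 was 395, 412 and 390 CPM, above every LPS library (0.34, SE 0.052, adjusted p = 5.43e-06). Per kilobase the ratio of Birc3 to Birc2 was 1.99 to 2.33 with vehicle, 3.9 to 4.22 with LPS and 8.72 to 9.26 with iBRD9 + LPS, with no overlap between these 3 groups. With dBRD9 it was 5.21 to 5.55. Birc2 was then 64.9, 60.9 and 62.3 CPM, all below LPS, a difference that was not called (-0.18, SE 0.074, adjusted p = 0.0975). It was called without both libraries that stand apart (adjusted p = 0.00181) and in a fit of the compared groups alone (adjusted p = 0.00357). Birc3 was 370, 369 and 363 CPM with dBRD9, a rise of 0.22 (SE 0.052, adjusted p = 0.0038).

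Dex raised both ligase genes under LPS. Birc2 was 86.1, 108 and 108 CPM (0.50, SE 0.073, adjusted p = 3.77e-06), the lowest being the library that stands apart, without which the change was 0.60. Birc3 was 379, 430 and 409 CPM (0.37, SE 0.052, adjusted p = 2.69e-06). With Dex present, Birc2 was 87.3, 90.1 and 92.9 CPM with iBRD9, which overlapped Dex + LPS (-0.16, SE 0.072, adjusted p = 0.0928). Without the first Dex + LPS library it was -0.26 and called (adjusted p = 0.00033). The interaction of Dex and iBRD9 on Birc2 was 0.64 (SE 0.1, adjusted p = 3.91e-05), and 0.54 without that library. Birc3 rose on top of Dex with both compounds, to 518, 515 and 539 CPM with iBRD9 (0.37, SE 0.052, adjusted p = 7.58e-06) and 469, 489 and 490 CPM with dBRD9 (0.25, SE 0.052, adjusted p = 0.00158, and 0.0967 in a fit of only the 2 groups compared). Its interactions were 0.027 (95% interval -0.12 to 0.18) and 0.028 (-0.12 to 0.18). Birc2 with Dex + dBRD9 + LPS was 88.4, 102 and 98.9 CPM (-0.064, adjusted p = 0.612), and -0.17 from Dex + LPS without the first Dex + LPS library (adjusted p = 0.0275). In experiment 2 neither gene was called with any compound. Birc2 was 80.7 and 85.6 CPM with Dex, 83.1 and 74.4 CPM with dBRD9 and 75.9 and 75.2 CPM with both. Birc3 was 404 and 379 CPM with Dex, 531 and 426 CPM with dBRD9 (0.37, SE 0.12, adjusted p = 0.17) and 423 and 405 CPM with both.

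**Figure D3:**
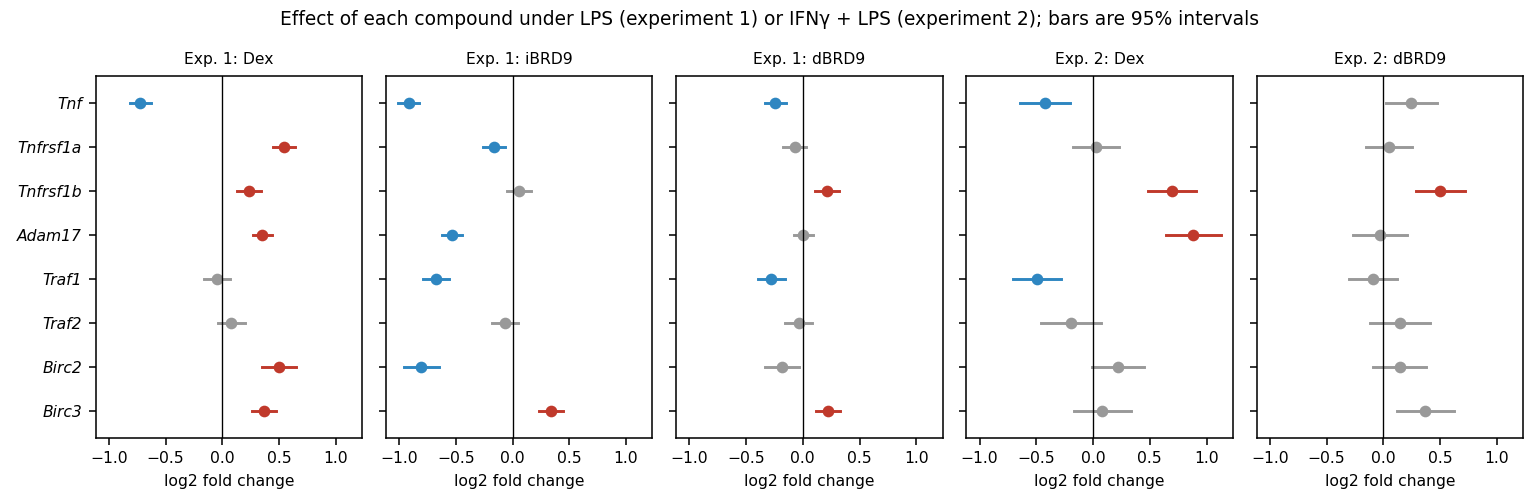
Log2 fold change of the 8 genes with each compound against LPS (experiment 1) or IFNγ + LPS (experiment 2), on 1 shared axis. Points are edgeR estimates, bars their 95% intervals, red and blue mark genes called higher and lower and grey those not called. Tnf was lower with Dex, iBRD9 and dBRD9 in experiment 1, and Birc2 and Birc3 lay on opposite sides of 0 with iBRD9.

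Counted over the 8 genes, all 8 were called higher with LPS than with vehicle, where 36.1% of all 12662 genes tested were called higher and 39.3% lower. With IFNγ + LPS all 8 were again higher than with vehicle, against 32.8% higher and 35.6% lower of 13313 genes. The median log2 fold change of the 8 was 2.12 and 1.88, against -0.048 and -0.11 over all genes. Since the 8 were chosen with earlier results of these data known, these contrasts describe the set and do not test it. On library totals alone the share of higher genes among all those called was 23% in place of 47.9% with LPS and 25.2% in place of 47.9% with IFNγ + LPS. Dex under LPS raised 5 (Tnfrsf1a, Tnfrsf1b, Adam17, Birc2 and Birc3) and lowered Tnf, against 27.9% and 27.5% of all genes (median 0.30, all genes 0.0065). iBRD9 raised Birc3 and lowered 5 (Tnf, Tnfrsf1a, Adam17, Traf1 and Birc2), against 31.4% and 30.5% (median -0.35, all genes 0.01). dBRD9 raised 2 (Tnfrsf1b and Birc3) and lowered 2 (Tnf and Traf1), against 6.64% and 9.97%. Under IFNγ + LPS, Dex raised 2 (Tnfrsf1b and Adam17) and lowered 2 (Tnf and Traf1), against 10.7% and 9.21%. dBRD9 raised Tnfrsf1b there, against 0.819% higher and 1.01% lower over all genes, a call lost whichever of the 4 libraries was left out (adjusted p = 0.0751 to 0.237).

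With Dex present, iBRD9 raised 2 of the 8 (Tnfrsf1b and Birc3) and lowered 2 (Tnf and Traf1), against 16.7% and 18% of all genes. dBRD9 added to Dex also raised Tnfrsf1b and Birc3 and lowered 3 (Tnf, Traf1 and Traf2), against 6.51% and 9.28%. With IFNγ it lowered Traf1, against 1.16% of genes called lower. The interaction of Dex and iBRD9 was called for 3 of the 8 (Tnf, Adam17 and Birc2), all positive, against 17.3% positive and 16% negative over all genes. Without the first Dex + LPS library 5 were called, with Tnfrsf1a at 0.16 (adjusted p = 0.0337) and Traf1 at 0.27 (adjusted p = 0.000397) added. That of Dex and dBRD9 was called for Traf1, negative, against 1.82% positive and 1.57% negative, and the call was kept in 11 of 20 alternatives. It was lost without any 1 of 8 libraries (adjusted p = 0.0563 to 0.1) and with only the compared groups (adjusted p = 0.0985). With IFNγ no member's interaction was called by edgeR. Traf1 alone had an unadjusted p under 0.05 there, DESeq2 and limma called none of the 8, and edgeR called 0.00751% of all genes.

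**Figure D4:**
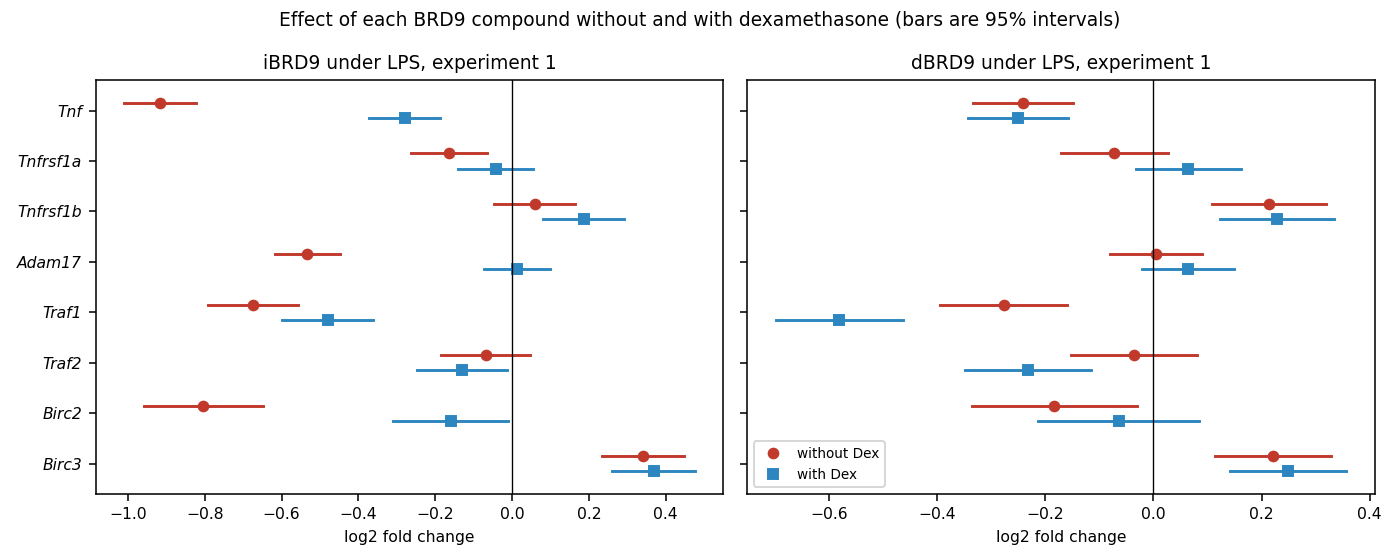
Log2 fold change of the 8 genes with iBRD9 (left) and dBRD9 (right) under LPS in experiment 1, without Dex (red circles, against LPS) and with Dex (blue squares, against Dex + LPS). Bars are 95% intervals from edgeR. For iBRD9 the 2 estimates were apart for Tnf, Adam17 and Birc2, and for dBRD9 they were apart for Traf1.

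The iBRD9 and dBRD9 groups were also set side by side as they were dosed, and since the doses differ the differences are between these groups and not between compounds at matched doses. iBRD9 + LPS was lower than dBRD9 + LPS for 5 of the 8 genes and higher for none, against 27.3% and 28.3% of all genes. The differences were -0.67 for Tnf (95% interval -0.77 to -0.58), -0.62 for Birc2 (-0.78 to -0.46), -0.54 for Adam17 (-0.62 to -0.45), -0.40 for Traf1 (-0.52 to -0.28) and -0.15 for Tnfrsf1b (-0.26 to -0.049). The last was not called on library totals alone (-0.075, adjusted p = 0.166) or without the second dBRD9 + LPS library (adjusted p = 0.0545). For Tnfrsf1a it was -0.092 (-0.19 to 0.0064), for Traf2 -0.033 (-0.15 to 0.083) and for Birc3 0.12 (0.013 to 0.23, adjusted p = 0.0537). With Dex present none of the 8 was called by edgeR, against 6.93% of genes called higher and 9.04% lower. All 8 differences were then between -0.11 and 0.12, and 2 (Tnfrsf1a and Birc3) had an unadjusted p under 0.05, while DESeq2 called Tnfrsf1a alone. A p that misses the threshold does not show that the groups act alike.

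Per kilobase of exon the order of the 8 genes changed with LPS. With vehicle Tnfrsf1b had the highest level in experiment 1, 183 CPM per kilobase, followed by Tnfrsf1a (56.3), Adam17 (36.2), Tnf (18.1), Birc3 (8.49), Birc2 (3.94), Traf2 (3.72) and Traf1 (1.04). With LPS it was Tnf (5139), Tnfrsf1b (874), Adam17 (111), Birc3 (62.9), Tnfrsf1a (62.5), Traf1 (59.6), Birc2 (15.5) and Traf2 (13.6). With IFNγ + LPS in experiment 2 it was Tnf (2329), Tnfrsf1b (300.5), Tnfrsf1a (178), Birc3 (73.9), Traf1 (55.2), Adam17 (53.8), Traf2 (15.7) and Birc2 (15.6). Some neighbours in these orders overlapped between libraries, so their order is not settled. They were Birc2 and Traf2 with vehicle, and Birc3 and Tnfrsf1a with LPS. With IFNγ + LPS they were Traf1 and Adam17, and Traf2 and Birc2.

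Other genes of the pathway were taken from a list of 38, of which 37 were tested in experiment 1 and 38 in experiment 2. LPS raised 24 of the 37 and lowered 8, against 36.1% and 39.3% of all genes, with a median log2 fold change of 0.50 beside -0.048 over all genes. In each comparison the share over all genes is given beside the list's count, and a share near it is no result about the list. Tnfaip3, whose protein A20 restrains TNF signalling, went from 28.0, 28.0 and 25.6 CPM to 1811, 1790 and 1761 CPM (log2 fold change 6.04, SE 0.09, adjusted p = 3.07e-24). Cflar, an inhibitor of caspase-8, rose by 4.01 (adjusted p = 1.99e-19), and Tnip1, a partner of A20, by 3.69 (adjusted p = 4.32e-24). IFNγ + LPS raised 27 of the 38 and lowered 5, against 32.8% and 35.6%, led by Tnfaip3 (5.35), Cflar (4.96) and Rhbdf2 (3.51), whose protein carries ADAM17 to the cell surface.

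Dex under LPS raised 14 of the 37 and lowered 8, against 27.9% and 27.5% (median 0.074, all genes 0.0065). Named by size were Ripk3, a kinase of necroptosis (-1.41), Rnf31, the catalytic subunit of the linear ubiquitin ligase (-0.74), and Rhbdf1, a relative of Rhbdf2 (0.60). Without the first Dex + LPS library Rhbdf1 was at 0.47. Rnf31 overlaps Irf9 on the same strand, so their reads may not be fully separated. iBRD9 raised 12 and lowered 13, against 31.4% and 30.5% (median -0.035, all genes 0.01). Traf5, a receptor adaptor, was 44.9, 44.3 and 45.4 CPM with LPS and 10.6, 10.9 and 11.1 CPM with iBRD9 (-2.05, SE 0.068, adjusted p = 7.26e-17). Map3k14, the NF-κB inducing kinase that TRAF2, TRAF3 and the cIAPs hold low as a protein, rose by 1.57 (adjusted p = 7.09e-12), and Rnf31 fell by 1.05 on the log2 scale (adjusted p = 2.27e-13). With Dex, iBRD9 raised 4 and lowered 8, against 16.7% and 18%, with Traf5 at -0.98, Map3k14 at 0.78 and Tnip2 at -0.64. The interaction of Dex and iBRD9 was called for 10 positive and 9 negative, against 17.3% and 16%, with Traf5 at 1.06, Map3k14 at -0.79 and Fadd, an adaptor of cell death, at -0.77. Without the first Dex + LPS library these were 1.11, -0.69 and -0.59. Fadd overlaps an antisense gene, as do Traf5 and Ikbke, and Tnip1 and Traf3 overlap other genes on the opposite strand, so these values are uncertain with the strand setting unknown. Map3k14 overlaps 1700028N14Rik and Casp8 overlaps Gm37760 on the same strand, so their reads may not be fully separated either.

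dBRD9 raised 2 of the 37 (Map3k14 and Traf3) and lowered 4 (Lta, Ikbkg, Rnf31 and Traf5), against 6.64% and 9.97%, and 18 were called without both libraries that stand apart. Ikbkg encodes NEMO, the regulatory subunit of the IκB kinase complex. It was 106, 111 and 116 CPM with LPS and 63.2, 66.3 and 66.8 CPM with dBRD9 (-0.76, SE 0.057, adjusted p = 1.49e-09). Added to Dex, dBRD9 took it from 123, 144 and 144 CPM to 76.5, 82.5 and 82.0 CPM (-0.77, SE 0.056, adjusted p = 1.07e-09). In experiment 2 it was 107 and 120 CPM with IFNγ + LPS and 76.8 and 81.0 CPM with dBRD9 (-0.52, SE 0.11, adjusted p = 0.0208). There it was 147 and 139 CPM with Dex and 78.3 and 82.1 CPM with Dex and dBRD9 (-0.83, SE 0.11, adjusted p = 0.000789). No library with dBRD9 overlapped its control group in any of these 4 comparisons. Low values of Ikbkg were not particular to dBRD9. With iBRD9 + LPS it was 61.8, 61.3 and 59.0 CPM, also below every LPS library. With Dex + iBRD9 + LPS it was 112.2, 112.3 and 111.5 CPM, below every Dex + LPS library. Ikbkg was the only gene of the list called with dBRD9 in experiment 2, in each of the 2 comparisons, and without any one library of the dBRD9 against IFNγ + LPS comparison no gene of the list was called there. Over all genes 1.01% were called lower with dBRD9 there and 1.16% with dBRD9 added to Dex. A single call in a list of 38 is thus no result about the list. Ikbkg overlaps G6pdx on the opposite strand, so its reads may not be fully separated from those of that gene. Rnf31 was at -0.43 and Traf3 at 0.37 with dBRD9. With Dex, dBRD9 raised 2 and lowered 5, against 6.51% and 9.28%, and 2 in all were called in a fit of only the compared groups. Casp8, the initiator caspase, was 65.7, 67.2 and 63.5 CPM with Dex and 94.8, 91.3 and 91.0 CPM with Dex and dBRD9 (0.50, adjusted p = 2.56e-07), with no overlap. Cflar was 1069, 1619 and 1592 CPM with Dex and 991.5, 1141 and 1149 CPM with Dex and dBRD9 (-0.38, adjusted p = 0.00758). These groups overlap through the first Dex library, and without it the change was -0.56 (adjusted p = 2.64e-10). Casp8 was the 1 gene of the list with a called interaction of Dex and dBRD9 (0.39, adjusted p = 0.00264), against 1.82% positive and 1.57% negative. With IFNγ none of the list was called, against 0.00751% of all genes. Under IFNγ + LPS, Dex raised 4 of the 38 and lowered 7, against 10.7% and 9.21%, and 3 to 7 were called in place of 11 with either library of either group left out. Traf5 was at 1.39, Map3k14 at -0.69 and Tank at -0.54. Between the iBRD9 and dBRD9 groups 11 were higher and 12 lower, against 28.3% and 27.3%, with Traf5 at -1.76, Map3k14 at 1.16 and Ikbke at -0.69. With Dex 6 were higher and 6 lower, against 6.93% and 9.04%, with Traf5 at -0.76, Map3k14 at 0.53 and Ikbkg at 0.48.

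Across the 10 groups given LPS, with log2 CPM centred within each experiment, the group means of Tnfrsf1a and Birc2 had a Pearson r of 0.895, those of Traf1 and Traf2 0.804, and those of Tnfrsf1b and Traf1 -0.729. These are descriptions over 10 points that share libraries and normalisation between genes. Among 7251 genes, the patterns most like that of Tnf were those of Noc4l (r 0.986), Daxx (0.984) and Isg15 (0.979). For Traf1 they were Rrbp1 (0.977), Lcp1 (0.961) and Flii (0.96), for Birc3 Rab2b (0.955), Bicra (0.946) and Epc2 (0.942), and for Tnfrsf1b Gucd1 (0.94), Pccb (0.939) and Cerk (0.939).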

How the data were processed

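Bulk RNA-seq of 31 libraries was analysed as raw counts per Ensembl gene, which the authors deposited with 1 column per library, all of which were used. The submitters' processing notes name mm10, fastp, STAR and DESeq2, without roles or versions. The sources used here do not give the counting step, the annotation release or the strand setting. Symbols, positions and exon lengths (all exons of a gene, overlaps counted once) came from GENCODE M21, and promoter windows from RefSeq on GRCm38.p6.

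Groups came from the labels. Experiments were fitted separately, over all their groups, in edgeR 4.0.16 (R 4.3.3) with TMM scaling. filterByExpr with a minimum count of 10 and a minimum total of 15 kept 12662 and 13313 genes. Quasi-likelihood F tests were adjusted by Benjamini-Hochberg over all genes tested. The SE is the log2 fold change divided by the square root of F, and 95% intervals use a t distribution. The interaction subtracts the BRD9 compound's effect under LPS alone from its effect in the presence of Dex. The common biological coefficient of variation was 6.79% and 10.6%, with 14 and 5 residual degrees of freedom. Depth was 19.3 to 29.9 M and 14.5 to 17.9 M counts. Between the libraries of a group the chi-square of the counts per degree of freedom was 2.13 to 44.8 over 26 pairs, where 1 is counting error alone, so none was taken for a duplicate. The test was checked on simulated data with planted changes in a small set of genes and otherwise the same mean and spread in every group. That check does not cover the choice of scaling or a spread that differs between genes or groups.

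The 8 genes and the lists were chosen with earlier results of these data known. All 8 genes are named. From the pathway list up to 3 called genes per comparison are named, those whose log2 fold change is largest in size, given a mean of 10 CPM or more in the higher group. Other genes of the list are named after their values were seen. Likeness was ranked among genes with at least 10 CPM, for Tnf, Traf1, Birc3 and Tnfrsf1b. Alternatives were RLE size factors, library totals alone, DESeq2 1.42.0, limma 3.58.1 voom, no filter on low counts, each library left out, the replicate block, only the compared groups, and leaving out both libraries that stand apart. Replicate numbers were not used to pair the samples in the main fit. In no comparison of experiment 1 were the correlations of deviations over 0.1 in every pair. They were 0.31, 0.0866 and 0.13 for Dex + dBRD9 + LPS against Dex + LPS. Experiment 2 has only 2 pairs, which give the same value because the deviations mirror each other, 0.116 for IFNγ + LPS against vehicle. The check cannot show that the samples are unpaired. The B cell marker list is not reported here.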

Additional observations from a re-analysis of the deposited data

Results flagged for a closer look

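The effect of iBRD9 under LPS differed with Dex for 3 of the 8 genes, by the test of the difference itself (compound effect with Dex minus that without, edgeR). The difference was 0.637 for Tnf (SE 0.063, adjusted p = 4.43e-08), 0.546 for Adam17 (SE 0.058, adjusted p = 1.25e-07) and 0.6447 for Birc2 (SE 0.1, adjusted p = 3.91e-05). All 3 genes were lower with iBRD9 and LPS alone. With Dex the change with iBRD9 was -0.28 for Tnf, which was called, and 0.013 for Adam17 and -0.16 for Birc2, which were not. The 4 groups used share their libraries between these genes, and 17.3% of all genes tested had a called positive difference.

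The effect of dBRD9 under LPS differed with Dex for Traf1, by -0.3041 (SE 0.08, adjusted p = 0.0363). The call was kept in 11 of 20 alternatives. It was lost with only the compared groups (adjusted p = 0.0985) and without any 1 of 8 libraries (adjusted p = 0.0563 to 0.1). In this comparison 1.57% of all genes had a called negative difference.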

How the results depend on the processing

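Over the 8 genes and 15 comparisons, 44 of the 56 called results stayed called with the same sign in every alternative run, 12 did not in at least 1, and 15 of the 64 not called were called in at least 1. Of 1688 alternative values, 1625 kept direction and side of the threshold, 28 lost and 34 gained a call, and 1 reversed: Tnfrsf1a with LPS, at -0.3608 with library totals alone, a scaling that shifts all genes of that comparison alike. The number of the 8 genes called moved from 3 to 5 for the interaction of Dex and iBRD9 without both libraries that stand apart. It moved from 0 to 1 for Dex + iBRD9 + LPS against Dex + dBRD9 + LPS without both, with DESeq2 and in a fit of only the compared groups. In such a fit it was 2 and not 5 for Dex + dBRD9 + LPS against Dex + LPS, and 0 and not 1 for the interaction of Dex and dBRD9. With 1 library left out it ranged from 0 to 1 for that interaction, from 3 to 5 for the interaction of Dex and iBRD9, was 0 in all 4 cases for dBRD9 under IFNγ + LPS, and 0 in all 4 for dBRD9 added to Dex there. With the replicate block the last was 0 as well (Traf1, adjusted p = 0.0637); beside that the block gained the call of Birc3 between iBRD9 and dBRD9 (adjusted p = 0.0437) and changed no other call of the 8 genes. Where a library was left out of a pair in experiment 2, the lone library was assumed to vary like the other groups. The cause of these changes was not tested. Of the pathway list, the count called with dBRD9 went from 6 to 12 (library totals alone), 18 (without both libraries that stand apart) and 16 (only the compared groups). It went from 7 to 2 for dBRD9 added to Dex (only the compared groups), from 1 to 3 for the interaction of Dex and dBRD9 (without both), and from 1 to 2 for dBRD9 added to Dex under IFNγ + LPS (no filter, DESeq2 and only the compared groups). With 1 library left out it was 0 for dBRD9 under IFNγ + LPS and 3 to 7 in place of 11 for Dex there in the 4 cases. Over all genes, the count called with dBRD9 under LPS went from 2103 to 3467 without both libraries that stand apart and 3305 with only the compared groups, where it also went from 4391 to 2283 and from 1999 to 579 for iBRD9 and dBRD9 added to Dex. For the interaction of Dex and dBRD9 it went from 429 to 949 and 211 in the same settings. With IFNγ it went from 243 to 390 (no filter) and 410 (only the compared groups) for dBRD9, from 186 to 515 and 511 for dBRD9 added to Dex, and from 1 to 144, 38 and (DESeq2) 21 for the interaction. On library totals alone the share of higher genes among those called went from 50.7% to 63.1% for iBRD9, 40% to 57.4% for dBRD9, 48.1% to 65.1% and 41.2% to 65.5% for these added to Dex, and with IFNγ from 53.8% to 64.4% for Dex and 44.9% to 34.3% for dBRD9. With 1 library left out, the count over all genes fell from 243 to 65 to 90 for dBRD9 with IFNγ, whichever of the 4 was left out. It fell from 186 to 33 and 37 for dBRD9 added to Dex there without either Dex + dBRD9 library and to 65 without the first Dex library, and from 2655 to 1549 and 1530 for Dex without either IFNγ + LPS library. The interaction with IFNγ was 0 to 9 in place of 1. Under LPS, the interaction of Dex and dBRD9 went from 429 to 269, 266, 271 and 890 without LPS replicates 1 and 3, Dex + dBRD9 replicate 2 and Dex replicate 1, and Dex + iBRD9 against Dex + dBRD9 from 2022 to 1282 without Dex + iBRD9 replicate 3. The pathway genes named in the Dex comparisons under LPS kept call and sign without the first Dex library and without both that stand apart, refits chosen after seeing the data.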
